A study of Mus musculus with 22 samples.

Results

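mmu-miR-181a-5p and mmu-miR-181c-5p of the miR-181 family are 2 of the 172 miRNAs listed in the small RNA sequencing of the arcuate nucleus (ARC) and paraventricular nucleus (PVH) of the mouse hypothalamus. Both were taken as the rows of that name, in both nuclei and both maternal groups. The pair was chosen by ARC values: miR-181c-5p was the 1 listed miRNA whose maternal groups did not overlap there. The ARC comparison of the maternal groups is therefore given as a description with no test. The tests are those of the PVH, and of miR-181a-5p between the nuclei.

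Offspring of obese mothers (Off-Ob) were set against offspring of lean control mothers (Off-C), to ask which hypothalamic miRNAs differ after exposure to maternal obesity. All were male mice of wild type genotype, strain C57bl6J, killed at 8 weeks of age and fed chow after weaning. Off-Ob dams ate a palatable high-fat diet with condensed milk before mating, through pregnancy and through lactation, and Off-C dams ate chow. Pups stayed with the dam until weaning, so exposure before birth and in the suckling period cannot be told apart. ARC and PVH tissue was cut from frozen sections by laser capture, and 1 male was taken per litter. There were 5 Off-Ob and 6 Off-C libraries per nucleus, 22 in all from 12 mice, and 4 Off-Ob and 6 Off-C mice gave both nuclei. The ARC library of F14A and the PVH one of F6A, both Off-Ob and named in the identifier sheet, were not analysed here.

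MicroRNAs are short RNAs that guide Argonaute proteins to messenger RNAs, mostly through base pairing of the seed, the bases near their 5′ end. Bound messengers are translated less or decay sooner. The miR-181 family is abundant in brain and is best known from mouse thymocytes, where miR-181a raises the sensitivity of T cell receptor signalling.

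The mature sequences are shown because all members share 1 seed (bases 2 to 8, in capitals), so that they can pair with the same sites while their reads are told apart by the rest of the molecule. The sequences are those of RefSeq on build GRCm38.p6, written 5′ to 3′. miR-181b-5p is the only other listed miRNA with this seed, and miR-181d-5p was not among the 172 and is shown as the neighbour of miR-181c.
miR-181a-5p: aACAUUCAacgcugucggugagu
miR-181c-5p: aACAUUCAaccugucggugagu
miR-181b-5p: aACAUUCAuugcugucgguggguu
miR-181d-5p: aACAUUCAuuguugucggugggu

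miR-181a-5p has 23 bases and miR-181c-5p 22, and the only difference between them is that miR-181c-5p lacks the base at position 11 of miR-181a-5p, counted from 1 at the 5′ end. miR-181b-5p departs from miR-181a-5p by A9U, C10U and A21G, where the first base is that of miR-181a-5p, and by 1 extra base near the 3′ end. The first bases that tell miR-181a-5p and miR-181c-5p apart thus lie past the seed.

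The members come from different loci. miR-181a-5p is made from 2 hairpins, at chr1:137966468-137966490 on the plus strand (Mir181a-1) and at chr2:38852741-38852763 on the plus strand (Mir181a-2), so its reads cannot be split between them. Mir181a-1 lies in an exon of the long noncoding RNA gene A430106G13Rik on the same strand in GENCODE M21. Mir181a-2 lies in an intron of Nr6a1, an orphan nuclear receptor gene, on the opposite strand. Each is followed by a miR-181b hairpin, after 97 bases on chromosome 1 and 1019 bases on chromosome 2.

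miR-181c-5p has 1 hairpin, with the mature arm at chr8:84178924-84178945 on the minus strand. It sits in an intron of Nanos3, which encodes an RNA-binding protein of germ cells, on the same strand, and 85 bases from Mir181d. The miR-23a, miR-27a and miR-24-2 hairpins lie on the other strand of chromosome 8, and Mir23a is 29556 bases from Mir181c. Of the 10 annotated mature arms of the 6 miR-181 hairpins, 3 were listed, all of them 5p arms, and the 3p arms were not among the 172.

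Levels are given as deposited, log2(CPM + 1), where CPM are per-million shares of the listed miRNA reads divided by a library-specific scale factor, and RPM are the same shares undivided. The log2 values could be turned back into whole reads, of which the ARC libraries held 22680 to 91790 and the PVH libraries 22495 to 61476. The ARC libraries of the Off-Ob mice F42A and F6A stood apart, with let-7 miRNAs at 79.1% and 64.2% of reads, against 33.8% to 46.8% in the other ARC libraries. F42A also had the lowest scale factor (0.47) and 20 miRNAs without a read. Of the 8 neuron markers, 7 were listed and none was at 0 reads throughout a group. Their summed level ran between 3042 and 15307 RPM in Off-Ob ARC libraries and between 11848 and 16692 in Off-C ARC libraries, and between 17926 and 23846 and between 15982 and 22950 in the PVH libraries of those groups. None of 3 red blood cell markers was listed. miR-211-5p, the 1 listed of 5 ependyma and choroid plexus markers, ran between 220 and 2615 RPM in Off-Ob ARC libraries and between 1025 and 2865 in Off-C ARC libraries. In the PVH its range was 661 to 979 RPM in Off-Ob and 400 to 1322 in Off-C. Of 6 neuroendocrine and pituitary markers, 2 were listed. Their summed level was 66931 to 234957 RPM in Off-Ob and 152672 to 220475 in Off-C ARC libraries. The PVH ranges were 117898 to 178427 in Off-Ob and 111521 to 152261 in Off-C. Values of astrocyte, oligodendrocyte and mural cell markers are not given here. miR-150-5p, the 1 listed of 5 microglia and leukocyte markers, ran between 353 and 2798 RPM in Off-Ob and between 1250 and 2364 in Off-C ARC libraries, and between 4686 and 7792 in Off-Ob and between 5290 and 7685 in Off-C PVH libraries. Both endothelial markers were listed, and their summed level ran between 3836 and 9990 RPM in Off-Ob and between 6649 and 21806 in Off-C ARC libraries, and between 15105 and 21080 in Off-Ob and between 15085 and 30278 in Off-C PVH libraries. The part of cell composition in the results below was not tested, and in bulk tissue fewer cells of a type and less RNA per cell cannot be told apart.

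In the ARC, miR-181c-5p was lower in every Off-Ob library than in any Off-C library. Its level was 8.78 in F6A, 8.99 in F12A, 9.04 in F13A, 9.14 in F41A and 8.88 in F42A, on the log2(CPM + 1) scale. The lowest, median and highest of the 6 Off-C levels were 9.51, 9.68 and 9.91. The Off-Ob mean was 8.96 ± 0.14 (SD, n = 5) and the Off-C mean 9.69 ± 0.16 (SD, n = 6), a log2 difference of -0.73, or 0.603-fold. The groups were parted by 0.37 on the log2 scale.

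These values chose the miRNA, so they are no support for a difference. Across the 172 listed miRNAs, 0.581% had an Off-Ob group wholly below the Off-C group, which is miR-181c-5p alone, and none had it wholly above. The nearest miRNA outside the rule was miR-3102-3p, whose groups overlapped by 0.08 (gap -0.08). By the size of the change, 37 miRNAs had a more negative ARC difference than miR-181c-5p. F42A had 20 miRNAs without a read, which stand at 0 on the log2 scale and lower the Off-Ob mean. miR-23a-3p, at -1.68, is an example. How many of the 37 owe their place to such zeros is not given, so the count is not a ranking of like changes. The Off-Ob SD of 0.14 for miR-181c-5p holds on the scaled values. Without scale factors its Off-Ob libraries had a mean of 463 and an SD of 159 RPM, and its Off-C libraries a mean of 935 and an SD of 135 RPM.

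**Figure D1:**
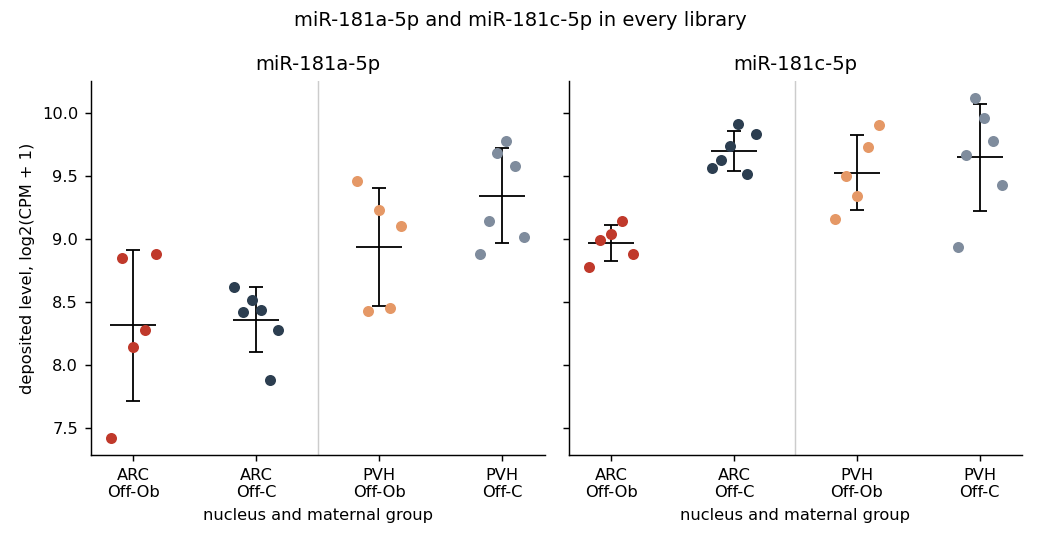
Deposited level, log2(CPM + 1), of miR-181a-5p (left) and miR-181c-5p (right) in each library, by nucleus and maternal group. Points are libraries, and bars are the mean and SD. For miR-181c-5p in the ARC the Off-Ob points end at 9.14 and the Off-C points begin at 9.51, and all other pairs of maternal groups overlap.

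In reads, the miR-181c-5p values rest on small counts. The Off-Ob ARC libraries held 18 reads in F6A, 32 in F12A, 26 in F13A, 53 in F41A and 5 in F42A. The Off-C ARC libraries held 30 to 50 reads, with a median of 41.5. The level of F42A rests on 5 reads and on its scale factor: without that factor it was 220 RPM, or 0.0220% of reads (95% Wilson interval 0.00942% to 0.0516%), the lowest of all 22 libraries.

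Without scale factors the ARC groups still did not overlap. miR-181c-5p took 220 to 581 RPM in Off-Ob libraries and 749 to 1100 in Off-C libraries. On this scale the groups of miR-744-5p did not overlap either, and the median log2 difference of all listed miRNAs was -0.52. Summed over libraries miR-181c-5p had 134 of 263611 reads in Off-Ob and 243 of 260557 in Off-C. That is 508 RPM in Off-Ob and 933 in Off-C, with reads pooled over mice, so the spread between mice is not in these values. The libraries carry no molecular identifiers that would count each RNA once, so all Wilson intervals given hold for counting error alone.

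Without the libraries of F42A and F6A the ARC log2 difference of miR-181c-5p was -0.64. In that set 3 miRNAs had groups that did not overlap, miR-181c-5p and miR-341-3p with Off-Ob below and miR-495-3p with Off-Ob above. Leaving out each library in turn moved the difference between -0.77 and -0.68. The median difference of all 172 miRNAs in the ARC was -0.16, and miR-181c-5p differed from it by -0.57.

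**Figure D2:**
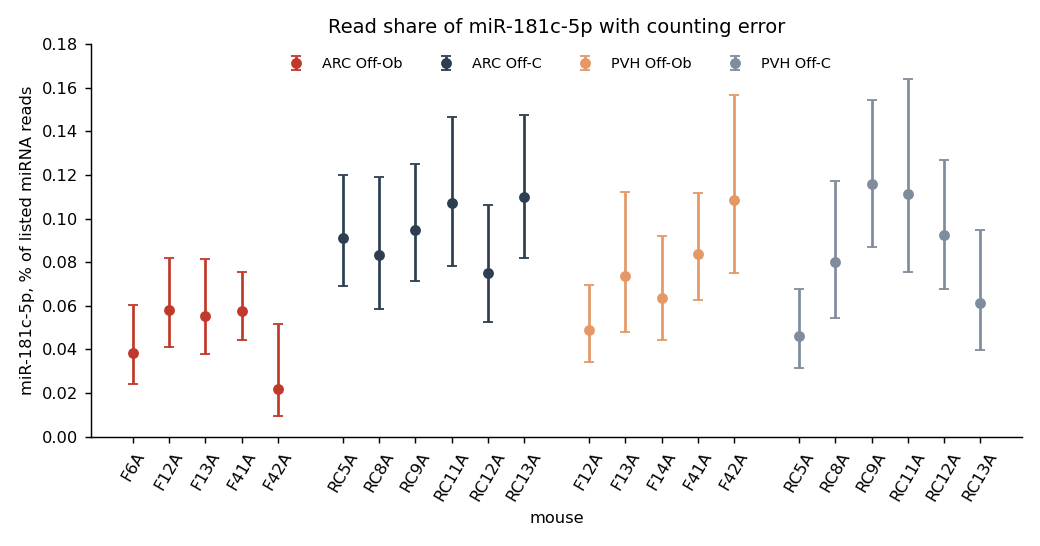
miR-181c-5p as a percentage of the listed miRNA reads in each library, without scale factors. Points are libraries, named by mouse, and bars are 95% Wilson intervals, which cover counting error only. The Off-Ob ARC shares run up to 0.0581% and the Off-C ARC shares start at 0.0749%, but single intervals of the groups overlap.

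miR-181a-5p showed no such separation in the ARC. Its level was 7.42 in F6A, 8.85 in F12A, 8.14 in F13A, 8.28 in F41A and 8.88 in F42A. The lowest, median and highest Off-C levels were 7.88, 8.43 and 8.62. Off-Ob held both the lowest and the highest library, and the groups overlapped throughout the Off-C range.

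The means were 8.31 ± 0.60 in Off-Ob (SD, n = 5) and 8.36 ± 0.26 in Off-C (SD, n = 6), a log2 difference of -0.05. The highest Off-Ob value, that of F42A, stood for 5 reads, and the lowest, that of F6A, for 7. The difference changed sign with the scaling and was 0.07 without these 2 libraries. miR-181b-5p differed by -0.04 in the ARC and had 1 to 10 reads per library in Off-Ob and 3 to 9 in Off-C, so that the other seed-sharing miRNA could be measured only coarsely.

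**Figure D3:**
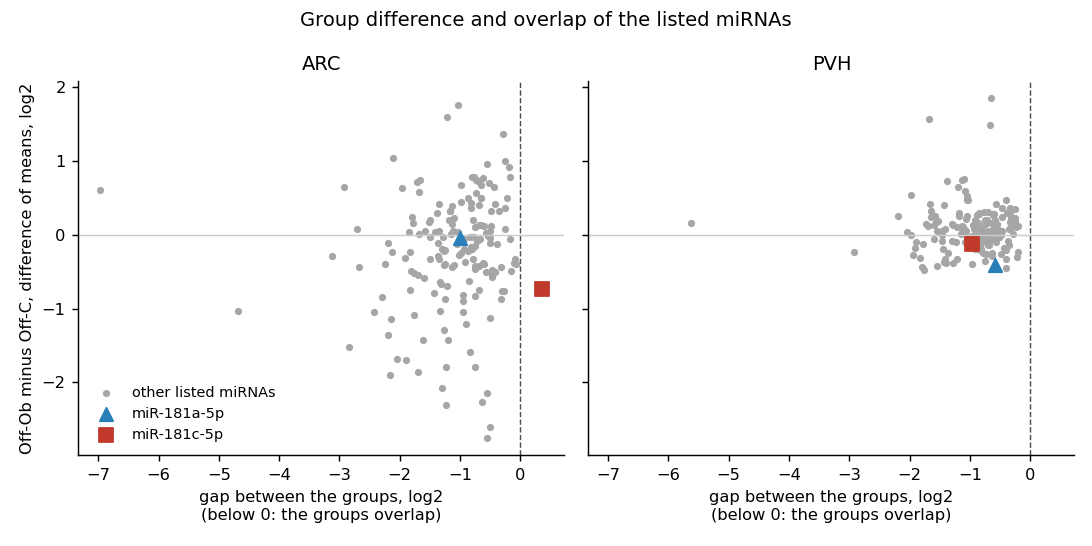
Difference of group means (Off-Ob minus Off-C, log2, vertical axis) against the gap between the groups (log2, horizontal axis) for the 172 listed miRNAs in the ARC (left) and PVH (right). A gap above 0 means that the groups do not overlap. The ARC gap is 0.37 for miR-181c-5p and -0.99 for miR-181a-5p, and the PVH gap is -0.96 for miR-181c-5p and -0.58 for miR-181a-5p.

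In the PVH, which was not used to choose the pair, neither member differed between maternal groups past the threshold. miR-181c-5p was at 9.16 in F12A, 9.50 in F13A, 9.34 in F14A, 9.73 in F41A and 9.90 in F42A, on the log2(CPM + 1) scale. The lowest, median and highest Off-C levels were 8.93, 9.72 and 10.11. All Off-Ob libraries lay within the Off-C range. The means were 9.52 ± 0.30 in Off-Ob (SD, n = 5) and 9.64 ± 0.42 in Off-C (SD, n = 6).

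The PVH log2 difference of miR-181c-5p was -0.12 (SE 0.24, 95% interval -0.63 to 0.39, limma adjusted p = 0.984). The exact two-sided permutation test over the 11 libraries (462 arrangements) gave p = 0.597. The ARC difference chose the miRNA, so no test of the difference between nuclei was made. Off-Ob mouse F42A had the lowest miR-181c-5p share of reads in the ARC and, with 28 reads, the highest Off-Ob share in its PVH library (0.108%).

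For miR-181a-5p the PVH values were lower in Off-Ob on average, with wide overlap. They were 9.46 in F12A, 8.43 in F13A, 9.23 in F14A, 8.45 in F41A and 9.10 in F42A, and the lowest, median and highest Off-C values were 8.88, 9.36 and 9.77. The mean was 8.93 ± 0.47 in Off-Ob (SD, n = 5) and 9.34 ± 0.38 in Off-C (SD, n = 6). Of the 5 Off-Ob libraries, 4 lay below the Off-C mean.

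That log2 difference of -0.41 (SE 0.26, 95% interval -0.97 to 0.15) had a limma adjusted p = 0.984 and an unadjusted p = 0.141. The exact two-sided permutation test gave p = 0.152. Only 4 of the 172 miRNAs had a more negative PVH difference. In the PVH, limma called 0% of the 172 miRNAs at an adjusted or at an unadjusted p under 0.05, limma-voom on the recovered reads called 0 at either, and 0% had groups that did not overlap.

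Between the nuclei, both tables were put on 1 scale, log2(RPM + 1) without scale factors, since the ARC and PVH tables had been scaled apart. All ARC libraries were sequenced in 1 pool and all PVH libraries in another, so nucleus and pool cannot be told apart. In Off-Ob mice miR-181a-5p was lower in the ARC than in the PVH of the same mouse in 4 of 4 mice, by -0.19 in F12A, -0.23 in F13A, -0.13 in F41A and -1.49 in F42A. In Off-C mice it was lower in the ARC in 5 of 6, with differences between -1.74 (RC12A) and 0.09 (RC5A).

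In Off-Ob mice miR-181a-5p averaged 8.34 ± 0.52 for ARC and 8.85 ± 0.47 for PVH libraries (SD, n = 4 mice), a log2 difference of -0.51 (SE 0.43, 95% interval -1.58 to 0.56, limma adjusted p = 0.566). The exact sign-flip permutation test over the mice gave p = 0.125, the smallest that 4 mice allow. Without F42A, the difference in Off-Ob was -0.18, and it was -0.08 in shares of the reads outside the let-7 family and 0.07 with median-ratio scaling. The median ARC minus PVH difference of all 172 miRNAs was -0.57 in Off-Ob mice and -0.12 in Off-C mice, so that the Off-Ob difference of miR-181a-5p was no larger than that of the median miRNA. In Off-C mice it averaged 8.52 ± 0.32 for ARC and 9.35 ± 0.49 for PVH libraries (SD, n = 6 mice), a log2 difference of -0.83 (SE 0.29, 95% interval -1.48 to -0.18, limma adjusted p = 0.138).

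The Off-C difference of miR-181a-5p thus did not pass the threshold over all miRNAs, and the exact sign-flip permutation test gave p = 0.0625, where 6 mice could reach 0.03125. In the same fit 6.98% of the 172 miRNAs were called lower in the ARC of Off-C mice, and 0% in Off-Ob mice. These were 12 lower in Off-C mice, beside 4 called higher. Before adjustment, 30 were lower and 6 higher in Off-C mice at a limma p under 0.05, and limma-voom called 16 after adjustment. In Off-Ob mice limma called 0 in either direction, 12 lower and 1 higher had an unadjusted p under 0.05, and limma-voom called 1. On the deposited values, scaled apart by nucleus, the Off-C difference of miR-181a-5p was -0.98 with a limma adjusted p = 0.038, so this call depends on how the tables are scaled.

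**Figure D4:**
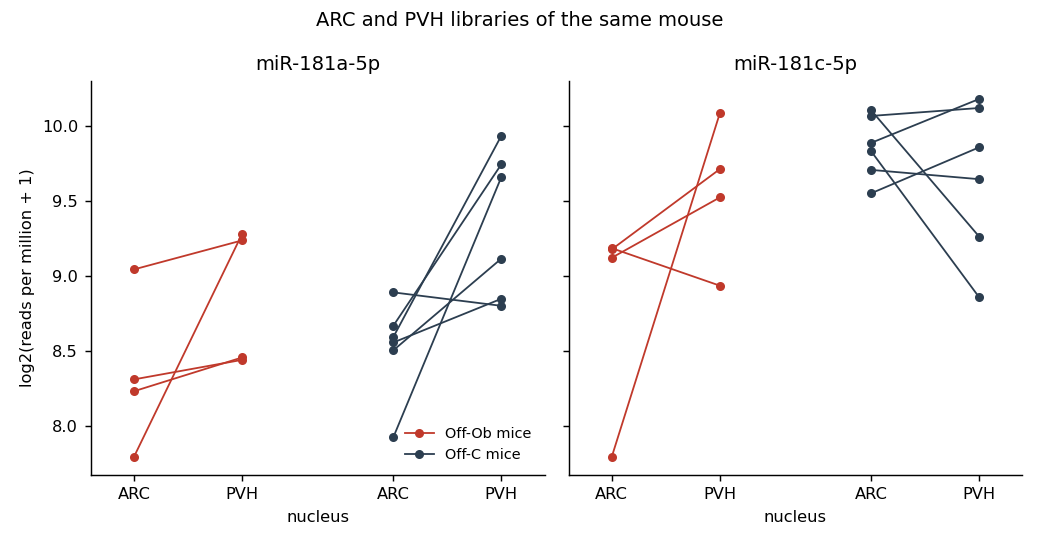
Level, log2(RPM + 1), of miR-181a-5p (left) and miR-181c-5p (right) in the ARC and PVH libraries of the same mouse, joined by a line. Off-Ob mice are 4 and Off-C mice 6. miR-181a-5p is lower in the ARC in 4 of 4 and 5 of 6 mice, whereas the lines of miR-181c-5p run both ways in each group.

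miR-181c-5p was lower in the ARC than in the PVH in 3 of 4 Off-Ob mice and in 3 of 6 Off-C mice. In Off-Ob mice its ARC minus PVH differences were 0.25 in F12A, -0.40 in F13A, -0.54 in F41A and -2.29 in F42A, with a mean of -0.75, which was -0.23 without F42A, -0.32 in shares of the reads outside the let-7 family and -0.17 with median-ratio scaling. In Off-C mice they lay between -0.31 (RC12A) and 0.98 (RC5A), with a mean of 0.20, which was 0.05 without RC5A. As the ARC values of miR-181c-5p chose it, these differences carry no test.

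The split of reads between the 2 miRNAs is a ratio within a library, which no scale factor moves. In Off-Ob mice miR-181c-5p made up 60.8% ± 9.27 (SD, n = 5) of miR-181a-5p plus miR-181c-5p reads in the ARC and 59.8% ± 11.03 (SD, n = 5) in the PVH. In Off-C mice it made up 71.6% ± 3.70 (SD, n = 6) in the ARC and 55.2% ± 3.14 (SD, n = 6) in the PVH. The Off-C libraries of the 2 nuclei did not overlap, with 65.8% to 75.6% in the ARC and 51.0% to 59.1% in the PVH. Nucleus and pool cannot be told apart here, and the ARC shares contain the values that chose miR-181c-5p. No background from other pairs of miRNAs is given.

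Within mice, the miR-181c-5p share was higher in the ARC than in the PVH in 1 of 4 Off-Ob mice and in 6 of 6 Off-C mice. The mean difference was -3.71 ± 8.85 percentage points in Off-Ob and 16.3 ± 4.49 in Off-C (SD, n = 4 and 6 mice). These shares contain the ARC values that chose the pair, so the comparison is a description with no test. In the ARC the Off-Ob shares were 72.0% in F6A, 52.5% in F12A, 65.0% in F13A, 64.6% in F41A and 50% in F42A, and overlapped the Off-C shares.

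In the PVH the split could be tested. The shares were 44.8% in F12A, 67.7% in F13A, 51.9% in F14A, 70.8% in F41A and 63.6% in F42A. The mean log2 ratio of miR-181c-5p to miR-181a-5p reads was 0.59 ± 0.67 in Off-Ob (SD, n = 5) and 0.30 ± 0.18 in Off-C (SD, n = 6). The difference of 0.29 gave p = 0.333 in the exact two-sided permutation test. The Off-Ob shares spread to both sides of the Off-C range.

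**Figure D5:**
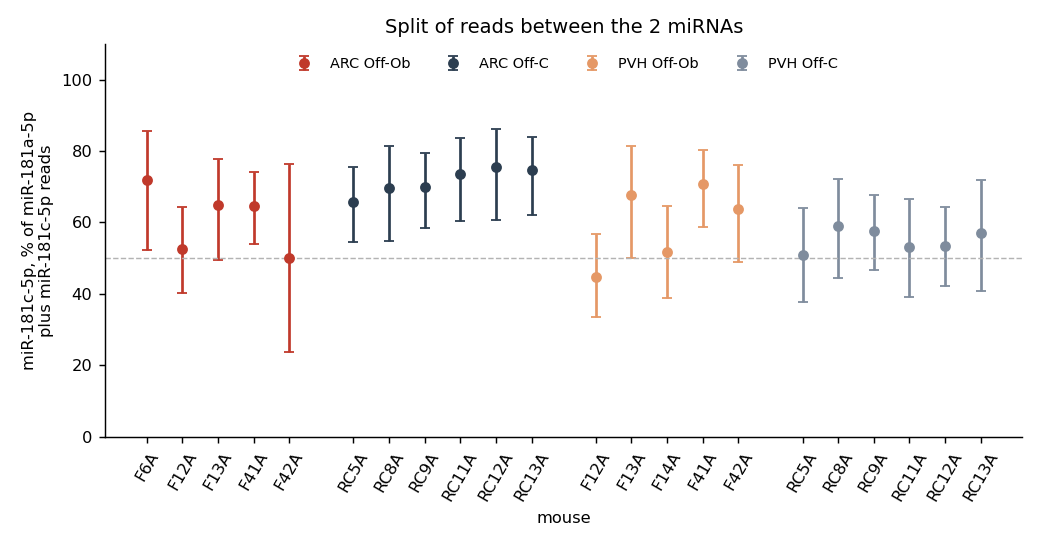
miR-181c-5p as a percentage of miR-181a-5p plus miR-181c-5p reads in each library, with 95% Wilson intervals for counting error. The dashed line marks equal reads. All 6 Off-C ARC libraries lie between 65.8% and 75.6%, above the 6 Off-C PVH libraries, and the Off-Ob libraries of both nuclei spread more widely. The ARC shares contain the values that chose miR-181c-5p.

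Neither member was among the abundant miRNAs. By mean RPM, where mature lengths differ by 1 base and no length term was applied, miR-181c-5p ranked 99 of 172 in Off-Ob and 79 in Off-C in the ARC, and 90 in Off-Ob and 88 in Off-C in the PVH. miR-181a-5p ranked 115 in Off-Ob and 118 in Off-C in the ARC, and 108 in Off-Ob and 97 in Off-C in the PVH. Of 150 listed miRNAs matched to a mature sequence, 23 had 2 or more hairpins and 127 had 1. A higher mean level than that of miR-181a-5p was found in 16 of those 23 and in 76 of those 127.

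In order of mean RPM, miR-181c-5p stood at 463 in Off-Ob ARC, 756 in Off-Ob PVH, 845 in Off-C PVH and 935 in Off-C ARC, and neighbours among the last 3 differ by less than the SD of either (224 in Off-Ob PVH, 275 in Off-C PVH, 135 in Off-C ARC). The order for miR-181a-5p was 302 in Off-Ob ARC, 373 in Off-C ARC, 501.9 in Off-Ob PVH and 683 in Off-C PVH, where each neighbour differs from the next by less than the larger of their SDs.

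Among miRNAs of the chromosome 8 cluster on the other strand, miR-23a-3p (-1.68), miR-27a-3p (-0.69) and miR-24-2-5p (-0.23) had negative log2 differences in the ARC. These are given with no test, and in each the groups overlapped. A negative ARC difference was common, with 105 of the 172 listed miRNAs below 0 and a median of -0.16. miR-24-1-5p, from chromosome 13, was at -0.87. miR-27a-3p, from the cluster on the other strand, had Off-Ob levels of 6.94 to 9.77 around the Off-C levels of 8.56 to 9.67. miR-23a-3p had 0 to 6 reads in Off-Ob and 2 to 7 in Off-C ARC libraries, too few to place. miR-24-3p, which its cluster on chromosome 8 and the paralogous cluster on chromosome 13 both produce, was at 14.34 ± 0.33 in Off-Ob and 14.22 ± 0.25 in Off-C (SD, n = 5 and 6).

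The 5p arms of miR-24 were sparse. miR-24-1-5p, from chromosome 13, had 34 summed ARC reads in Off-Ob and 61 in Off-C, and miR-24-2-5p had 44 and 68 reads in those groups. In the PVH none of these 5 miRNAs passed the limma threshold, with differences between -0.27 and 0.32. miR-23b and miR-27b were not among the 172.

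Across the 22 libraries, with the mean of each nucleus and maternal group taken off, the deposited levels of the 2 members had a Pearson r of 0.28, and of 0.56 in RPM. The miRNAs most like miR-181c-5p were miR-324-5p (r = 0.69, and 0.89 in RPM), miR-30e-3p (r = 0.69, and 0.59 in RPM) and miR-324-3p (r = 0.66, and 0.85 in RPM), of 106 with a median of 20 reads or more. Both arms of the miR-324 hairpin are among them. For miR-181a-5p they were miR-322-5p (r = 0.76, and 0.87 in RPM), miR-222-3p (r = 0.63, and 0.82 in RPM) and let-7i-5p (r = 0.60, and 0.75 in RPM), of 107, and no miRNA is on both lists. The libraries differ in depth and composition, and these correlations are descriptions over libraries of which 20 come in pairs from 1 mouse.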

How the data were processed

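The authors prepared TruSeq Small RNA libraries from laser-captured tissue, aligned to GRCm38 (Bowtie 1.2.3) and tested miRNAs in edgeR 3.36.0. What the authors deposited are log2 values of 172 miRNAs, log2(CPM + 1), although the authors' methods name RPKM. The miRNA annotation, the filter on miRNAs and the treatment of reads that match several miRNAs are not given in the sources used here. Columns carry a group, and mice were read from the identifier sheet beside the tables. Library totals and normalization factors listed apart, and the authors' comparisons, were not used.

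Whole reads were recovered as multiples of the value of 1 read. All 3784 values were whole within 0.01. With 22495 to 91790 reads a library, a count of 0 allows 3 reads, or up to 0.0133% of reads.

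Off-Ob and Off-C were compared in the PVH on the deposited log2 values with limma 3.58.1 in R 4.3.3 (eBayes with trend), adjusted by Benjamini-Hochberg over all 172 miRNAs. All reached a CPM of 1 in at least 5 libraries. The nuclei were compared on log2(RPM + 1) with the mouse as a block. Same-named libraries come from the same animal, but their deviations from the group means correlated only at -0.42 to 0.15. Permutation tests were exact and two-sided, in Python 3.11.15 with NumPy 2.4.6. Wilson intervals used SciPy 1.17.1, and figures matplotlib 3.10.9. Simulated data with known changes were used to check the limma step. limma-voom was also run on the recovered reads. Sequences come from RefSeq and hairpins from GENCODE M21.

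The members and lists were chosen with earlier results of these data known. The miRNAs named were the members, every listed miR-181 arm, miRNAs with the same seed, the miR-23a, miR-27a, miR-24-2 cluster and its paralog, and the 3 most like each member. miR-3102-3p, miR-341-3p, miR-495-3p and miR-744-5p were named after their values were seen. Alternatives were other pseudocounts, scalings, filters, limma settings and each library left out. The ARC without F42A and F6A, limma-voom between nuclei and the library-wise check of the read split were chosen after seeing the data.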

Additional observations from a re-analysis of the deposited data

How the results depend on the processing

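The ARC difference of miR-181c-5p, whose sign no left-out library could turn because its groups do not overlap, was -1.09 in plain RPM and -0.53 after quantile normalization. Plain reads moved the median ARC difference of all miRNAs to -0.52, against -0.16 as deposited. Without scale factors 2 ARC miRNAs had groups that did not overlap, miR-181c-5p and miR-744-5p, and without F42A and F6A 3 did. The ARC difference of miR-181a-5p turned positive with median-ratio scaling (0.054), reads outside the let-7 family (0.039), quantile normalization (0.14) and without F42A and F6A (0.065), and ranged between -0.19 and 0.18 with each library left out, positive without F6A or RC5A. The cause was not tested.

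The PVH differences kept their sign and stayed short of the threshold under all 23 alternatives each, between -0.54 and -0.28 for miR-181a-5p and between -0.26 and -0.03 for miR-181c-5p (adjusted p 0.9615 to 0.9981). The PVH log2 ratio of the 2 miRNAs stayed between 0.12 and 0.51 with each library left out (exact permutation p 0.0619 to 0.676). For miR-181a-5p between nuclei, the Off-C call was reached on the deposited values (-0.98, adjusted p = 0.038), and the Off-Ob difference turned to 0.070 with median-ratio scaling over both tables. Without the replicate block for the mouse, these differences were -0.51 in Off-Ob (limma adjusted p = 0.499) and -0.83 in Off-C (limma adjusted p = 0.0549), and neither call changed. No paired analysis of the maternal groups was possible because no mouse is in both groups. The replicate numbers of the sample labels, which start at 1 in each group, could not be tied to columns. A library of 5 reads limits what can be said of F42A.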
